A study of Mus musculus with 45 samples.

Results

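Bmp4, the genes Id1, Id2 and Id3, and the inhibitory Smad genes Smad6 and Smad7 were followed in mouse induced pluripotent stem cells (iPSCs) made from different somatic cells. Members were all probe sets annotated to these 6 symbols, which gave 8 of the 22690 probe sets in each of 2 tables of array values. Bmp4, Id1, Id3, Smad6 and Smad7 had 1 probe set each and Id2 had 3. The 45 arrays covered 15 groups with 3 clones in each. From mouse 2 there were iPSCs of tail tip fibroblast (TTF), splenic B cell, T cell and bone marrow granulocyte (Gra) origin, each at passages 4, 10 and 16. From mouse 1 there were granulocyte lines at passages 4 and 16, together with passage 6 lines of skeletal muscle precursor (SMP) origin. All lines came from a secondary reprogramming system, in which the somatic cells already carry inducible reprogramming factors, and all were grown in medium with fetal bovine serum and LIF on irradiated embryonic fibroblast feeders, which were removed by preplating. The labels state no strain, age or transgene. Clones of one group came from 1 mouse, so p-values reflect how clones vary and not how animals vary. The spread used was pooled over all groups of passages 4, 6 and 16, from both mice, or over all groups of passage 10. It is therefore not the spread of the compared clones alone. Each difference between mice compares 1 animal with another.

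Bone morphogenetic proteins are secreted ligands of the TGF-beta family. They bind paired type I and type II receptors, which phosphorylate Smad1, Smad5 and Smad9, and these enter the nucleus with Smad4. The Id genes are direct targets of this signal and encode proteins that bind E proteins and keep them off DNA. Smad6 and Smad7 are targets too, and their products inhibit the pathway. In mouse pluripotent cells, BMP4 together with LIF is known to support self-renewal through Id proteins, and serum is a source of BMP activity.

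The sequence before the transcription start is shown for Bmp4, Id2 and Id3, the ligand gene and the Id genes that differed from the granulocyte lines in opposite directions at passage 10. Each run is the 250 bases before the start in the RefSeq annotation of GRCm38.p6, read 5′ to 3′ on the gene's strand. Of the 6 genes, 4 had an entry in the promoter table used. The windows were Bmp4 at chr14:46390670-46390919 on the minus strand, Id2 at chr12:25096093-25096342 on the minus strand and Id3 at chr4:136143572-136143821 on the plus strand. Capitals mark a match to a motif searched.
Bmp4: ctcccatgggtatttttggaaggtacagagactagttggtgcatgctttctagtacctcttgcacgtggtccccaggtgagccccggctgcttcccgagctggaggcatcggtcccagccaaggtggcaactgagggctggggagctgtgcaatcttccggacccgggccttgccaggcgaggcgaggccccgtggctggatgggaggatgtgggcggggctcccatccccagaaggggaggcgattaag
Id2: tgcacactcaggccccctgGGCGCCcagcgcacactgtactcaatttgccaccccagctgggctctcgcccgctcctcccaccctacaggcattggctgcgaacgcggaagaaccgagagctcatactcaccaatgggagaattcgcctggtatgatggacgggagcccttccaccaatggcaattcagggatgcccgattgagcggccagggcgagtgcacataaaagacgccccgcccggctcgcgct
Id3: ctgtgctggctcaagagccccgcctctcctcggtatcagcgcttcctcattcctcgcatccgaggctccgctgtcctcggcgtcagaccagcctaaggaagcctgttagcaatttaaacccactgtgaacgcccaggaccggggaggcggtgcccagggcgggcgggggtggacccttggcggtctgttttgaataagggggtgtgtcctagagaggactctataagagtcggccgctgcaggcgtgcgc
On both strands, 3 motifs were searched, the BMP-responsive elements GGCGCC and GCCGNCGC and the Smad-binding palindrome GTCTAGAC. The only match in the windows of Bmp4, Id2, Id3 and Smad6 was GGCGCC in Id2, 231 to 226 bases before the start. GGCGCC was present in 9.59% of 32851 windows of the same length, GCCGNCGC in 6.89% and GTCTAGAC in 0.167%. The GC content was 63.2% for Bmp4, 62.8% for Id2, 62.8% for Id3 and 66.8% for Smad6, with a median of 52.4% over all windows. These arrays measured no binding, so the match describes the letters only.

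Values are log2 RMA values, in which 1 unit is a doubling, and the table of passages 4, 6 and 16 (33 arrays) and the table of passage 10 (12 arrays) came from different array platforms and were normalized separately. No level was compared between the tables or between probe sets. The mean correlation of an array with its own group was 0.995 to 0.998 at passage 10 and 0.921 to 0.995 in the other table, where the lowest was clone 3 of the mouse 2 granulocyte lines at passage 16. Group means of the pluripotency factors were at least 10.99 for Pou5f1, 11.15 for Nanog and 10.88 for Sox2. A difference was called at a Benjamini-Hochberg adjusted p under 0.05 over all probe sets (limma), and each count of members called is given beside the share of all probe sets called. The share of all probe sets at an unadjusted p under 0.05 was not counted. Counts at that threshold therefore cannot be set beside the shares given. In RNA from whole cultures, fewer cells of a type and less RNA per cell cannot be told apart.

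Bmp4 encodes the ligand. At passage 4 it was highest in the granulocyte lines of mouse 2, with 9.30, 8.88 and 8.56 in clones 1, 2 and 3. The TTF lines had 6.45, 5.79 and 6.99. The B cell lines had 7.73, 6.05 and 7.0, and the T cell lines 6.51, 6.66 and 6.16. All 3 granulocyte clones lay above all 9 clones of the other origins. Of the 8 member probe sets, 3 differed among the origins at passage 4, against 37.9% of all probe sets. Bmp4 was 5.67-fold lower in TTF than in granulocyte lines (log2 difference -2.50 ± 0.51, SE, adjusted p = 0.00074), 5.53-fold lower in T cell lines (-2.47 ± 0.51, adjusted p = 0.00066) and 3.96-fold lower in B cell lines (-1.98 ± 0.51, adjusted p = 0.015). The B cell difference lost its call when granulocyte clone 1 was left out (-1.79, adjusted p = 0.073), and likewise for granulocyte clone 2 (-2.00, adjusted p = 0.051) and B cell clone 2 (-1.55, adjusted p = 0.12). In these pairs, 24.3% (TTF), 25.2% (T) and 7.18% (B) of all probe sets were called, and 42.5%, 46.4% and 38.3% did not overlap.

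At passage 10 the granulocyte lines had the lowest Bmp4, the opposite order. They had 9.51, 9.39 and 9.23, and the TTF lines 10.38, 10.44 and 10.10. The B cell lines had 10.32, 10.11 and 10.33, and the T cell lines 10.23, 10.08 and 10.04. No granulocyte clone reached the lowest clone of another origin, while the other 3 origins overlapped. Of all probe sets, 43.3% (TTF), 39.1% (B) and 36.2% (T) were apart from the granulocyte lines without overlap at passage 10. These shares apply to every member at that passage. Bmp4 was 1.91-fold higher in TTF than in granulocyte lines (0.93 ± 0.11, adjusted p = 0.00014), 1.84-fold higher in B cell lines (0.88 ± 0.11, adjusted p = 0.00063) and 1.67-fold higher in T cell lines (0.74 ± 0.11, adjusted p = 0.0012). The granulocyte arrays are shared by these comparisons, and the platform differs from that of passage 4.

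**Figure D1:**
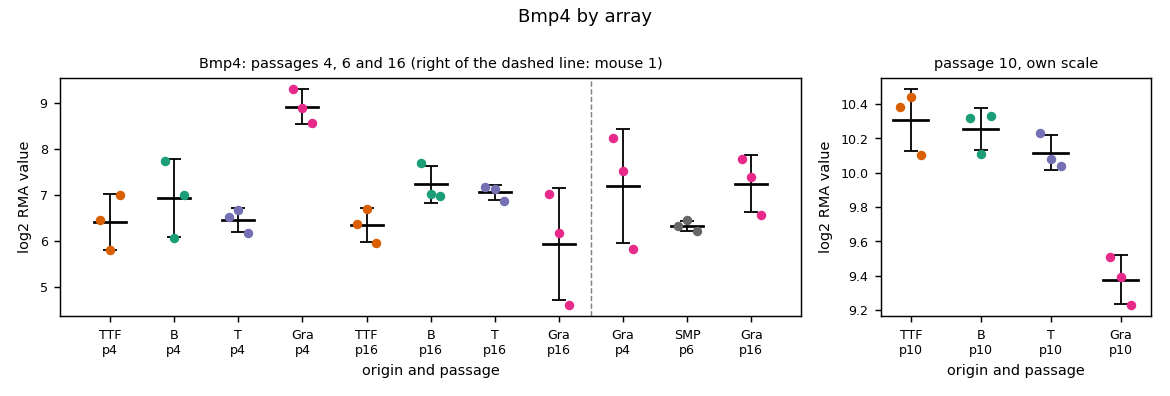
Log2 RMA value of Bmp4 (y axis) on each array, by origin and passage (x axis); points are clones, horizontal bars the mean and whiskers 1 SD (n = 3), with passage 10 on its own scale. The 3 granulocyte clones of mouse 2 lie at 8.56 to 9.30 at passage 4, above every other clone of that table, and at 9.23 to 9.51 at passage 10, below the other origins.

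From passage 4 to passage 16, Bmp4 fell 7.89-fold in the granulocyte lines of mouse 2 (-2.98 ± 0.51, adjusted p = 0.00014), to 7.01, 6.17 and 4.61. Without clone 3 at passage 16 the difference was -2.32 (adjusted p = 0.0018). The TTF lines at passage 16 had 6.36, 6.69 and 5.95, the B cell lines 7.69, 7.02 and 6.97, and the T cell lines 7.16, 7.13 and 6.87. Their changes were not called, at -0.07 ± 0.51 (TTF), 0.30 ± 0.51 (B) and 0.61 ± 0.51 (T). The change differed among the 4 origins, with a range of 3.59 (adjusted p = 0.0013).

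The granulocyte lines of mouse 1 did not show this fall. They had 8.23, 7.52 and 5.82 at passage 4 and 7.77, 7.38 and 6.56 at passage 16, a change of 0.05 with a 95% confidence interval from -1.0 to 1.09. This interval uses the pooled spread, while the SD of these clones was 1.24 at passage 4 and 0.62 at passage 16. The change was 3.03 ± 0.72 higher in mouse 1 than in mouse 2 (adjusted p = 0.021), 1 of 8 member probe sets called against 2.83% of all. This call was lost when only the arrays compared were fitted (adjusted p = 0.16) and without any one of mouse 1 clone 3 at passage 4 (2.34, adjusted p = 0.076), mouse 1 clone 1 (2.76, 0.078) or clone 2 (2.96, 0.065) at passage 16, mouse 2 clone 1 (2.83, 0.071) or clone 2 (3.04, 0.056) at passage 4, or mouse 2 clone 3 at passage 16 (2.37, 0.064).

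At passage 4, Bmp4 was 3.29-fold lower in the granulocyte lines of mouse 1 than in those of mouse 2 (-1.72 ± 0.51, adjusted p = 0.039), the 1 member called of 8, against 6.46% of all probe sets. Of 16 alternatives, 8 ended this call, among them leaving out mouse 1 clone 3 (-1.03, adjusted p = 0.33) or clone 2 (-1.88, 0.067), or mouse 2 clone 1 (-1.52, 0.15), clone 2 (-1.74, 0.10) or clone 3 (-1.89, 0.069), the clone number as a block (-1.57, 0.13), quantile normalization (-1.73, 0.061) and only the arrays compared (0.066). The SMP lines had 6.32, 6.44 and 6.22, the narrowest spread of the table for Bmp4. Ordered by mean over the 11 groups, from 8.91 ± 0.37 (SD, n = 3) in the mouse 2 granulocyte lines at passage 4 to 5.93 ± 1.22 in the same lines at passage 16, 1 of 10 neighbouring pairs did not overlap, the first.

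Id1, Id2 and Id3 are the best known BMP targets in pluripotent cells. At passage 10, Id3 was lower in the granulocyte lines than in TTF and T cell lines, and Id1 was lower than in T cell lines. Id2 was higher than in all 3 other origins at 2 of its probe sets. The test over the 4 origins called Id3 (range 0.73, adjusted p = 0.0054) and did not call Id1 (range 0.61, adjusted p = 0.0504). Id3 was 9.98, 9.32 and 9.61 in the granulocyte lines, 10.23, 10.36 and 10.50 in TTF lines, 10.29, 10.29 and 10.49 in T cell lines and 10.02, 9.98 and 9.86 in B cell lines. All TTF and T cell clones exceeded all granulocyte clones, and the B cell clones overlapped them. Id3 was 1.66-fold higher in TTF (0.73 ± 0.14, adjusted p = 0.0022) and 1.65-fold higher in T cell lines (0.72 ± 0.14, adjusted p = 0.0040) than in granulocyte lines, and the B cell difference was 0.32 (95% confidence interval 0.01 to 0.62, adjusted p = 0.13).

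Id1 was 10.64, 10.71 and 10.72 in the T cell lines and 10.41, 9.68 and 10.14 in the granulocyte lines at passage 10. The T cell clones did not overlap any other origin, and the difference from the granulocyte lines was 1.53-fold (0.61 ± 0.15, adjusted p = 0.013). Of all probe sets, 36.2% did not overlap between T cell and granulocyte lines, 22.2% between T cell and TTF lines and 15.2% between T cell and B cell lines. TTF lines (10.47, 10.53 and 10.28) and B cell lines (10.63, 10.34 and 10.38) overlapped the granulocyte lines, with differences of 0.35 (95% confidence interval 0.02 to 0.68, adjusted p = 0.11) and 0.37 (0.04 to 0.70, adjusted p = 0.10).

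The Id2 probe set 1435176_a_at was 9.98, 9.89 and 10.05 in the granulocyte lines at passage 10. It was 9.09, 9.27 and 9.39 in TTF lines, 9.42, 9.56 and 9.26 in B cell lines and 9.29, 9.42 and 9.33 in T cell lines. The granulocyte clones lay above all others. The differences from the granulocyte lines were -0.73 ± 0.10 (TTF, adjusted p = 0.00027), -0.56 ± 0.10 (B, adjusted p = 0.0022) and -0.63 ± 0.10 (T, adjusted p = 0.0014). The probe set 1422537_a_at differed the same way, by -0.53 (adjusted p = 0.0036), -0.38 (0.029) and -0.40 (0.023). Its B cell call was lost when only the arrays compared were fitted or without granulocyte clone 1 or 3 or any one B cell clone (-0.28 to -0.39, adjusted p 0.052 to 0.10), and its T cell call with only the arrays compared or without granulocyte clone 1 or 3 or T cell clone 1 or 3 (-0.31 to -0.41, adjusted p 0.062 to 0.088). The third probe set, 1453596_at, lay on average at percentile 25.6 of its arrays at passage 10 and 6.06 in the other table, and was called in no comparison.

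In all, 5 of the 8 member probe sets differed among the origins at passage 10, against 25.8% of all probe sets. Without granulocyte clone 3 the count was 3, Bmp4, Id2 at 1435176_a_at and Id3. Id2 at 1422537_a_at was also not called without granulocyte clone 1 (adjusted p = 0.070), nor Smad6 without granulocyte clone 2 (0.090) or after quantile normalization (0.080). For the pairs with granulocyte lines, 5 of 8 were called for TTF (30.9% of all), 4 for B cell lines (22.6%) and 6 for T cell lines (22.3%). Among TTF, B and T cell lines, limma called 0 of 8 in each pair. Of all probe sets, 0.0441% (TTF against B), 0.0397% (TTF against T) and 0% (B against T) were called. At an unadjusted p under 0.05 there were 1, 0 and 1 members in these pairs.

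**Figure D2:**
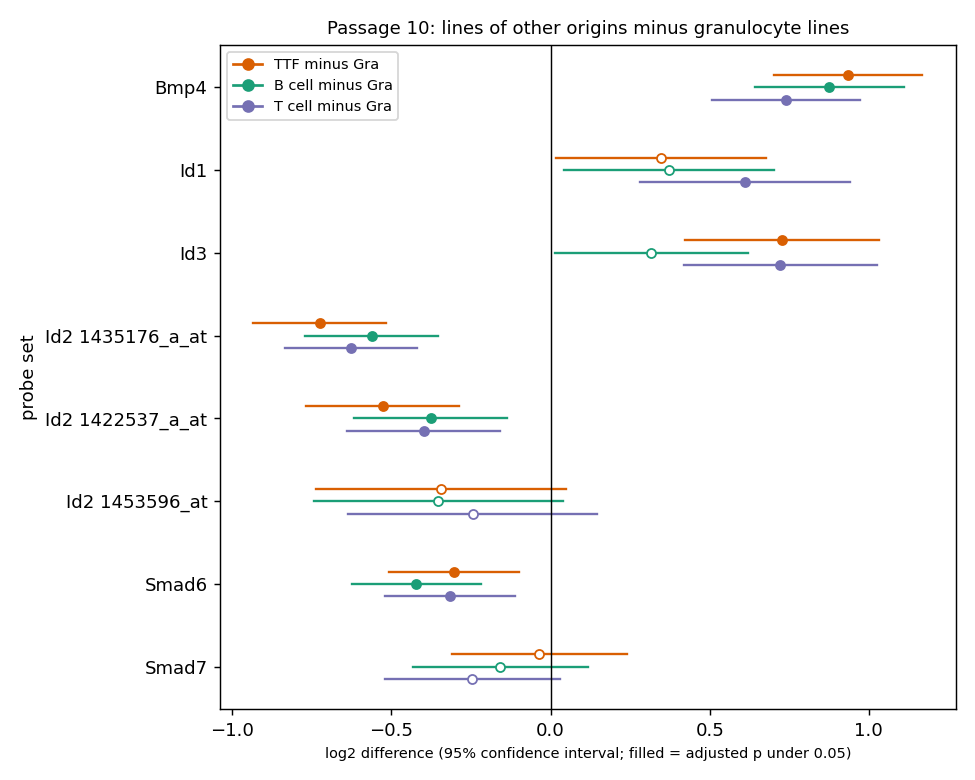
Log2 difference from the granulocyte lines at passage 10 (x axis) for each member probe set (y axis) and origin; points are estimates, lines 95% confidence intervals, filled points an adjusted p under 0.05. Bmp4 lies 0.74 to 0.93 above the granulocyte lines, while the Id2 probe sets 1435176_a_at and 1422537_a_at and Smad6 lie below.

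Fibroblast and feeder markers moved with origin in the same arrays. The mean level of 26 such genes at passage 10 ranged over clones from 9.35 to 9.50 in TTF lines, 8.72 to 9.15 in T cell lines, 8.75 to 8.96 in B cell lines and 8.39 to 8.40 in granulocyte lines. Against the granulocyte lines, 21 of 26 were called higher and 1 lower in TTF lines, 10 and 1 in B cell lines and 17 and 1 in T cell lines. Of all probe sets, 14.4% were called higher and 16.5% lower in TTF lines, 10.4% and 12.2% in B cell lines, and 10.9% and 11.4% in T cell lines. Of 13 primitive streak and mesoderm markers, 7, 6 and 8 were called higher and 0 lower. Their part in the Bmp4 and Id differences was not tested. At passage 4 the order differed: 22 measured fibroblast and feeder markers had means of 7.48 to 7.60 in the granulocyte lines, 7.07 to 7.26 in TTF, 7.17 to 7.29 in B cell and 7.98 to 8.22 in T cell lines.

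At passage 4, the origins differed in Id2 at 1422537_a_at. Id1 and Id3 were not called, and their widest pairs were Id1 in B cell against T cell lines (0.60, 95% confidence interval 0.01 to 1.19, adjusted p = 0.17) and Id3 in TTF against T cell lines (0.51, -0.19 to 1.22, adjusted p = 0.41). Id2 at 1422537_a_at was 8.22, 8.22 and 8.96 in B cell lines, 6.34, 6.44 and 7.21 in TTF lines, 7.36, 7.46 and 6.33 in T cell lines and 8.29, 8.01 and 6.76 in granulocyte lines. The B cell clones lay above all TTF and T cell clones, in pairs where 38.8% (TTF) and 39% (T) of all probe sets did not overlap. The B cell lines were 3.49-fold above TTF lines (TTF minus B -1.80 ± 0.39, adjusted p = 0.0020) and 2.67-fold above T cell lines (1.41 ± 0.39, adjusted p = 0.015), with 1 of 8 members called in each pair against 18.9% and 14.7% of all probe sets. Between TTF and T cell lines limma called 0 of 8, against 11.5% of all probe sets, and 1 member had an unadjusted p under 0.05. The difference from T cell lines was not called without T cell clone 3 (1.05, adjusted p = 0.12) or B cell clone 3 (1.17, adjusted p = 0.079). The probe set 1435176_a_at was not called at passage 4, with means from 8.86 ± 0.46 (TTF) to 9.68 ± 0.45 (B).

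At passage 16, limma called 0 of 8 member probe sets among the 4 origins, with 3 at an unadjusted p under 0.05, and 1.35% of all probe sets were called. Leaving out granulocyte clone 2 gave 3 (Id1, Id2 at 1435176_a_at and Id3), B cell clone 1 gave 2 (Id1 and Id3), TTF clone 3 or granulocyte clone 3 gave 1 (Id3) and B cell clone 2 gave 1 (Id1). In single pairs, Id3 and Id1 were higher in T cell than in granulocyte lines. Id3 was 9.23, 9.72 and 9.66 in T cell and 7.80, 8.17 and 8.54 in granulocyte lines (1.37 ± 0.34, adjusted p = 0.025). Id1 was 7.62, 8.31 and 7.97 against 7.22, 6.80 and 6.66 (1.08 ± 0.29, adjusted p = 0.036). The groups did not overlap in either gene, as in 14.4% of all probe sets, and 2 of 8 members were called against 3.65% of all probe sets. In the other 5 pairs limma called 0 of 8. Of all probe sets, it called 0.639% for TTF against T, 0.185% for B against T and 0.00441% for B against Gra. For TTF against B and TTF against Gra it called 0%. At an unadjusted p under 0.05 there were 3 members for TTF against T, 1 for B against T and 2 for B against Gra. TTF against B and TTF against Gra had 0 each. With only the arrays compared, neither was called (adjusted p 0.43 for Id3 and 0.57 for Id1). Id3 was not called without T cell clone 2 (1.28, adjusted p = 0.10) or clone 3 (1.31, 0.054) or granulocyte clone 1 (1.18, 0.056), nor Id1 without T cell clone 2 (0.90, 0.16) or clone 3 (1.07, 0.057) or granulocyte clone 3 (0.96, 0.10), nor with array weights (0.84, 0.065).

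**Figure D3:**
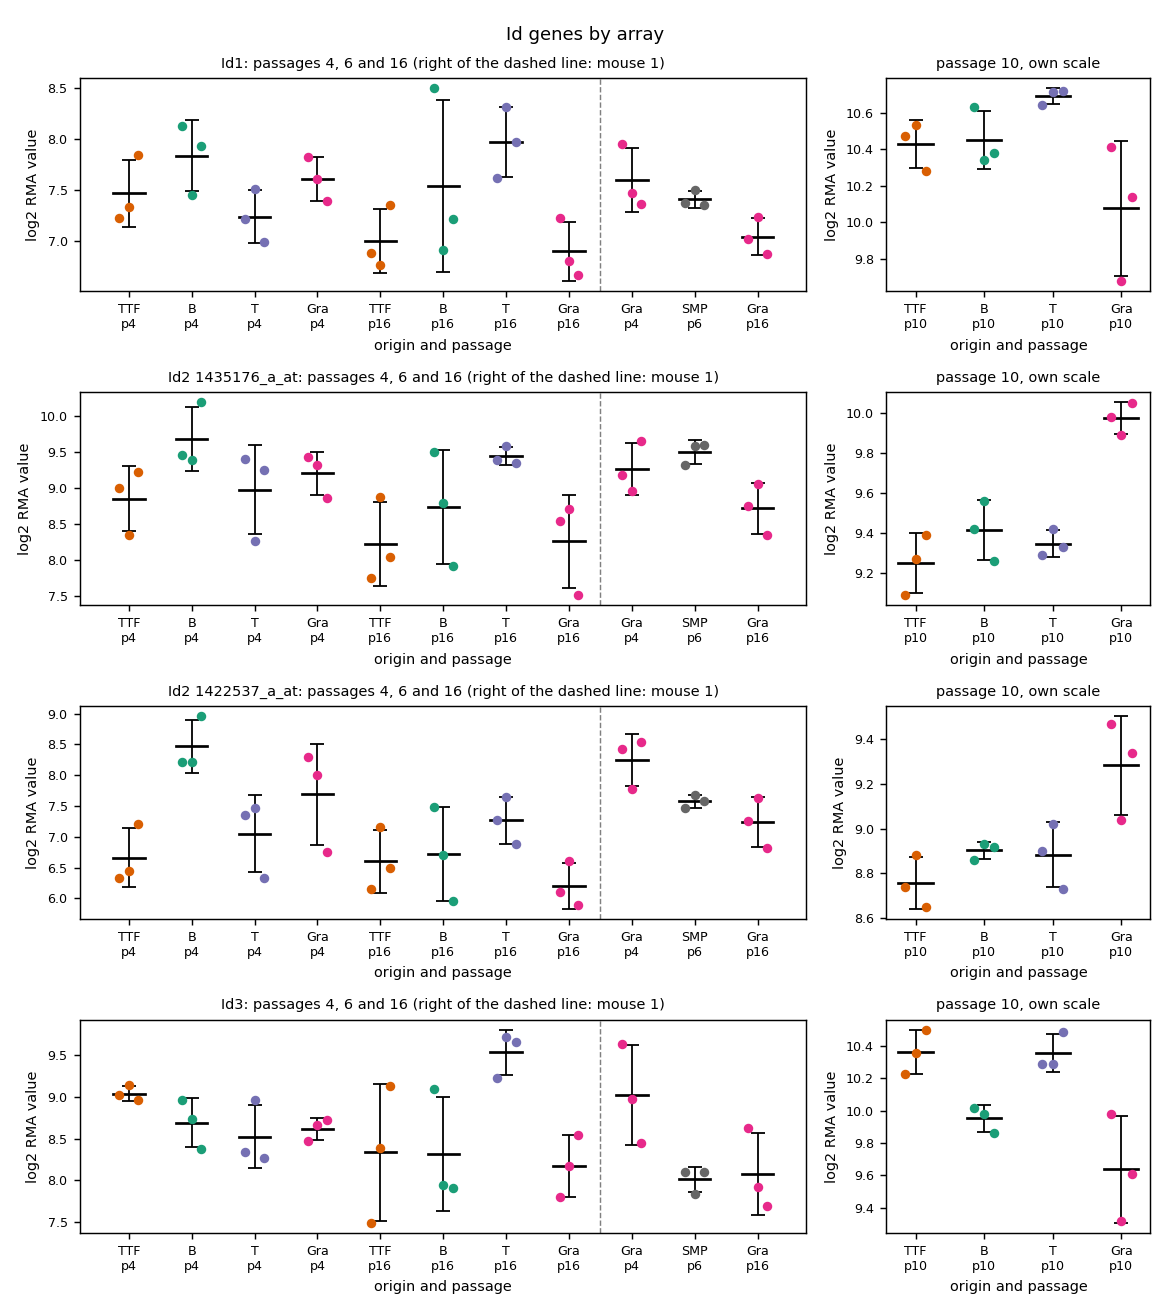
Log2 RMA values of Id1, Id3 and the Id2 probe sets 1435176_a_at and 1422537_a_at (y axes) on each array, by origin and passage (x axis); points are clones, bars the mean and whiskers 1 SD (n = 3), with passage 10 on its own scale. Id3 in the T cell lines at passage 16 (9.23 to 9.72) is the one group that does not overlap the next in order of mean in the larger table. It does overlap the mouse 1 granulocyte lines at passage 4, which reach 9.64.

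Averaged over the 4 origins of mouse 2, Id2 fell from passage 4 to passage 16. The fall was 1.71-fold at 1422537_a_at (-0.77 ± 0.20, adjusted p = 0.0045), lower in 9 of 12 lines with the same origin and clone number, and 1.43-fold at 1435176_a_at (-0.51 ± 0.18, adjusted p = 0.037), lower in 8 of 12. The labels do not say that a clone number marks the same line at both passages. Counting all members, 4 of 8 were called against 29.4% of all probe sets. The call at 1435176_a_at was lost under 15 of 33 alternatives, 12 of them single arrays left out (TTF clones 1 and 3 at both passages, T cell clones 1 and 3 at passage 4 and 3 at passage 16, granulocyte clones 1 and 2 at passage 4 and 3 at passage 16, B cell clone 3 at both), with -0.41 to -0.50 and adjusted p 0.057 to 0.087. With the line as a block the adjusted p was 0.087, and with only the arrays compared it was 0.069. After quantile normalization the difference was -0.46 (adjusted p = 0.0501).

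By origin, 1422537_a_at fell 3.37-fold in the B cell lines, to 7.49, 6.70 and 5.96 (-1.75 ± 0.39, adjusted p = 0.0060), and 2.80-fold in the granulocyte lines, to 6.10, 6.61 and 5.89 (-1.48 ± 0.39, adjusted p = 0.0057). The B cell fall was not called without clone 3 at passage 16 (-1.37, adjusted p = 0.068), nor the granulocyte fall with only the arrays compared (adjusted p = 0.099). The changes in TTF lines (-0.07) and T cell lines (0.22) were not called, and the change differed among origins with a range of 1.97 (adjusted p = 0.012). At 1435176_a_at the granulocyte lines fell 1.92-fold (-0.94 ± 0.37, adjusted p = 0.048), a call lost without clone 3 at passage 16 (-0.57, adjusted p = 0.33) or clone 1 (-0.83, 0.14) or 2 (-0.89, 0.12) at passage 4, with the line as a block (0.098), with only the arrays compared (0.17), and after quantile normalization (-0.79, 0.084) or cyclic loess (-0.80, 0.078).

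Id3 rose 2.01-fold in the T cell lines, from 8.34, 8.96 and 8.27 to 9.23, 9.72 and 9.66 (1.01 ± 0.34, adjusted p = 0.042), with no overlap, as in 33.1% of all probe sets. The call was lost without clone 1 (0.92, adjusted p = 0.13) or 3 (0.88, 0.14) at passage 4, or clone 2 (0.92, 0.12) or 3 (0.95, 0.12) at passage 16. In the same comparison 8 of 22 fibroblast and feeder markers fell and none rose, and their part was not tested. Of all probe sets, 9.59% fell and 7.06% rose. Id1 in these lines was 0.73 ± 0.29 higher (adjusted p = 0.082). The changes of Id3 and Id1 differed among origins, with ranges of 1.71 (adjusted p = 0.027) and 1.45 (adjusted p = 0.029). Both calls were lost without any one of T cell clones 1 and 3 at passage 4 or 2 and 3 at passage 16 (Id3 1.59 to 1.65, adjusted p 0.060 to 0.079; Id1 1.28 to 1.44, adjusted p 0.052 to 0.097), and that of Id1 also without granulocyte clone 1 at passage 4 (1.34, 0.054) or with only the arrays compared (1.45, 0.076).

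Of the 8 member probe sets, 5 were called in the passage change of the mouse 2 granulocyte lines (34.5% of all probe sets), 1 in the B cell lines (8.97%), 1 in the T cell lines (16.7%) and 4 in the test of passage by origin (31.6%). In the TTF lines limma called 0 of 8, against 10.3% of all, and 3 members had an unadjusted p under 0.05. In the granulocyte lines of mouse 1 it called 0 of 8, against 0.886% of all, and 2 members had an unadjusted p under 0.05. In those mouse 1 lines Id3 was -0.95 (95% confidence interval -1.65 to -0.24, adjusted p = 0.22) and Id1 -0.55 (-1.14 to 0.04, adjusted p = 0.51), each lower at passage 16 in all 3 same-numbered pairs. Their differences by pair were -1.01, -1.06 and -0.77 for Id3 and -0.93, -0.24 and -0.48 for Id1, and with the line as a block the adjusted p was 0.14 and 0.31. The median of all probe sets shifted by 0.16 in the mouse 2 granulocyte lines. In those lines 9 of 17 pluripotency markers were called lower and 0 higher, and their part in the member changes was not tested. Of all probe sets, 16.3% were called lower and 18.3% higher there.

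**Figure D4:**
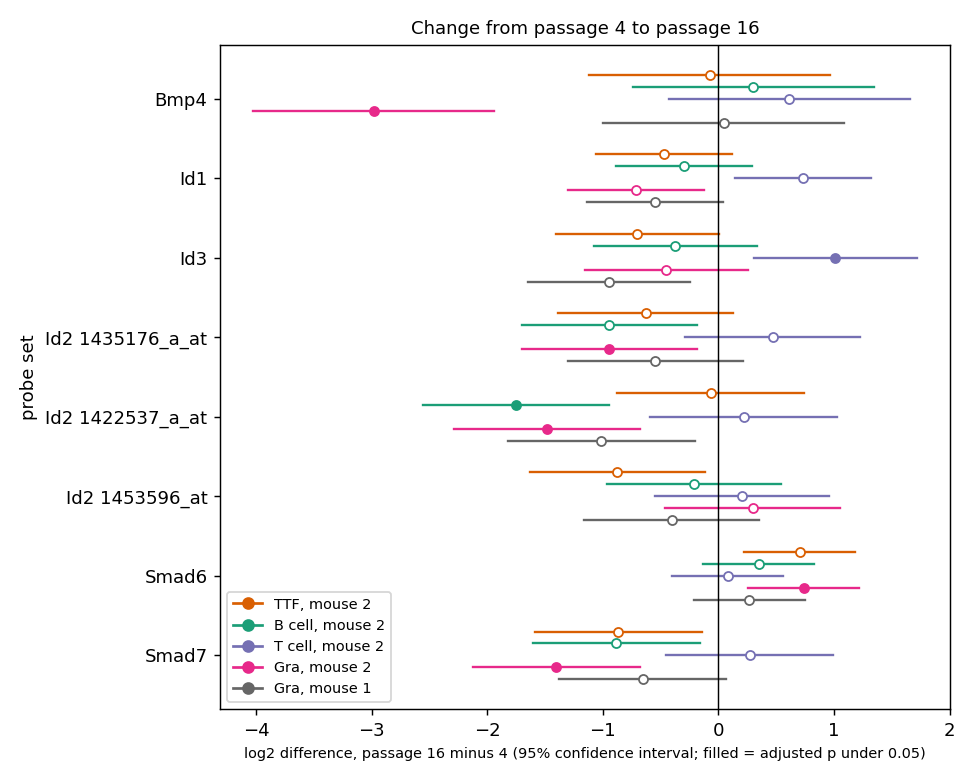
Log2 difference of passage 16 minus passage 4 (x axis) for each member probe set (y axis) by origin and mouse; points are estimates, lines 95% confidence intervals, filled points an adjusted p under 0.05. Bmp4 in the mouse 2 granulocyte lines stands at -2.98, while the other 4 sets of lines lie between -0.07 and 0.61.

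Smad6 and Smad7 encode the inhibitory Smads. From passage 4 to 16, averaged over the origins of mouse 2, Smad6 rose 1.38-fold (0.47 ± 0.12, adjusted p = 0.0038; lower in 3 of 12 lines) and Smad7 fell 1.65-fold (-0.72 ± 0.18, adjusted p = 0.0032; lower in 9 of 12). The 3 lines in which Smad7 was not lower were the T cell lines, with differences of 0.03, 0.38 and 0.40 and a mean change of 0.27 (95% confidence interval -0.45 to 0.99, adjusted p = 0.65). In TTF and B cell lines Smad7 was -0.87 (adjusted p = 0.13) and -0.88 (adjusted p = 0.12). The test of whether the change of Smad7 differed among the origins gave a range of 1.67 (adjusted p = 0.055), or 0.030 with the line as a block. In the granulocyte lines Smad7 went from 10.18, 10.02 and 9.28 to 8.89, 8.96 and 7.44, without overlap (-1.40 ± 0.35, adjusted p = 0.0039), as in 41.5% of all probe sets. It was not called without clone 3 at passage 16 (-0.91, adjusted p = 0.055) or with only the arrays compared (adjusted p = 0.13). Smad6 in these lines went from 4.77, 5.23 and 5.37 to 5.88, 5.66 and 6.05, also without overlap (0.74 ± 0.23, adjusted p = 0.017). It was not called without clone 1 at passage 4 (0.56, adjusted p = 0.11), without clone 3 at passage 16 (0.64, 0.082), with the line as a block (0.054), with only the arrays compared (0.11) or after cyclic loess (0.53, 0.057).

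At passage 4, Smad6 was 5.76, 6.24 and 5.91 in the T cell lines, 1.79-fold above the granulocyte lines (0.84 ± 0.23, adjusted p = 0.0082), without overlap, as in 46.4% of all probe sets. The call was lost without T cell clone 2 (0.71, adjusted p = 0.054) or granulocyte clone 1 (0.67, 0.071). In the test over the 4 origins at passage 4, Smad6 was not called without T cell clone 2 (adjusted p = 0.15) or 3 (0.059) or granulocyte clone 1 (0.085). At passage 10 the granulocyte lines had the highest Smad6, with 7.23, 7.47 and 7.58. The TTF lines had 7.07, 7.21 and 7.10, the B cell lines 6.98, 7.07 and 6.96, and the T cell lines 7.21, 6.99 and 7.14, none of which reached a granulocyte clone. The differences were -0.30 (TTF, adjusted p = 0.028), -0.42 (B, 0.0076) and -0.32 (T, 0.030), and those of TTF and T cell lines were each lost under 7 of 15 alternatives (-0.23 to -0.33, adjusted p 0.051 to 0.13). These were quantile normalization, cyclic loess, only the arrays compared, granulocyte clone 2 or 3 left out, and TTF clone 1 or 3 or T cell clone 2 or 3 left out. Smad7 was not called at passage 10, with means from 9.69 ± 0.25 (T) to 9.93 ± 0.11 (Gra).

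**Figure D5:**
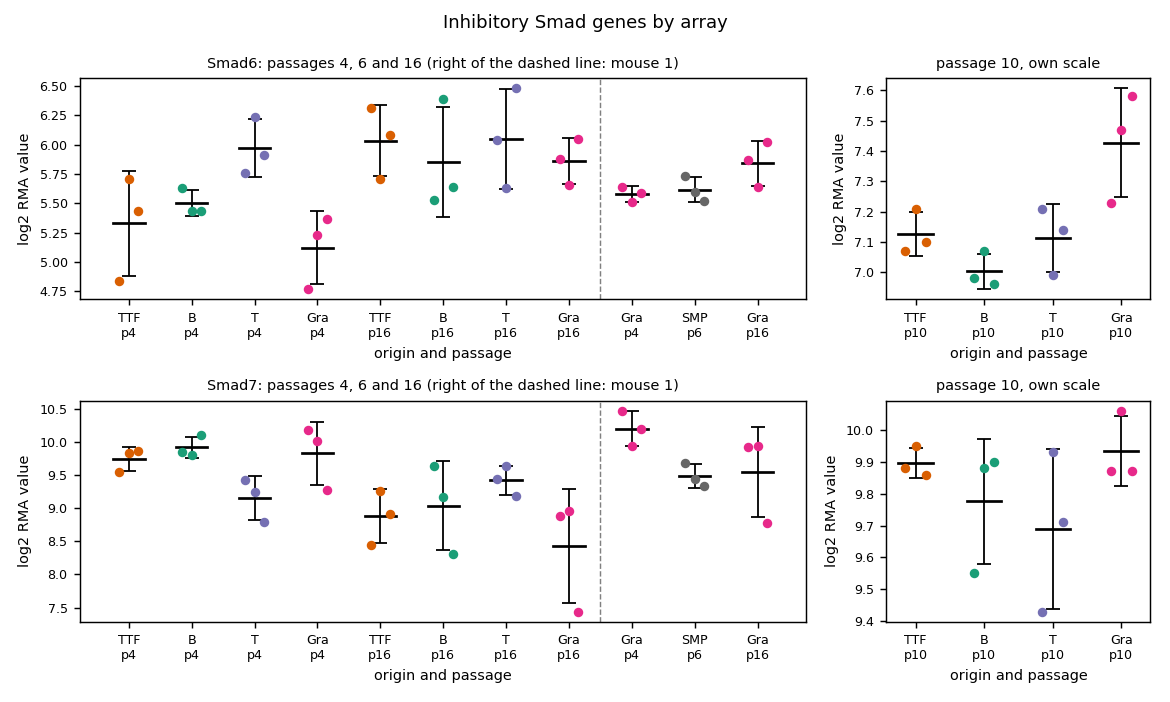
Log2 RMA values of Smad6 and Smad7 (y axes) on each array, by origin and passage (x axis); points are clones, bars the mean and whiskers 1 SD (n = 3), with passage 10 on its own scale. In the larger table, Smad6 has its lowest mean in the mouse 2 granulocyte lines at passage 4 (4.77 to 5.37). Smad7 has its lowest mean in these lines at passage 16 (7.44 to 8.96). Each of these groups overlaps the next in order.

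Smad7 was higher in the granulocyte lines of mouse 1 than of mouse 2 at passage 16 (9.93, 9.94 and 8.77 in mouse 1), by 1.12 ± 0.35 (adjusted p = 0.035), although the groups overlapped. This was the 1 member called of 8, against 18% of all probe sets. It was not called without mouse 2 clone 3 (0.63, adjusted p = 0.40), mouse 1 clone 1 (0.93, 0.14) or clone 2 (0.92, 0.14), nor with the clone number as a block (1.28, 0.071) or only the arrays compared (0.40).

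The SMP lines at passage 6 were compared with the granulocyte lines of the same mouse, where origin and passage cannot be told apart. Id3 was 8.10, 7.84 and 8.10 in SMP lines and 9.64, 8.98 and 8.45 in granulocyte lines at passage 4, 2.02-fold lower (-1.01 ± 0.34, adjusted p = 0.036) and without overlap, the 1 member called of 8 against 20.6% of all probe sets. In this pair 51% of all probe sets did not overlap. Leaving out granulocyte clone 1 ended the call (-0.71, adjusted p = 0.24), as did leaving out granulocyte clone 2 (-1.03, 0.079) or SMP clone 1 (-1.05, 0.060), 2 (-0.92, 0.12) or 3 (-1.06, 0.076). Against the granulocyte lines at passage 16, limma called 0 of 8, with 1 at an unadjusted p under 0.05, and 12.9% of all probe sets.

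Other genes of the pathway were read from lists. The counts of each list stand beside the share of all probe sets called among the origins. That share was 37.9% at passage 4, 25.8% at passage 10 and 1.35% at passage 16. Among BMP-family ligands, 4 of 13 measured differed among the origins at passage 4: Bmp4, Bmp7 (range of origin means 2.10), Gdf3 (1.56) and Bmp6 (1.36). Bmp7, which signals through the same Smads, was 5.62 ± 0.39 (SD, n = 3) in granulocyte lines and 7.71 ± 0.20 in T cell lines. Gdf3, a ligand gene expressed in pluripotent cells, was 10.24 ± 0.10 in granulocyte and 8.68 ± 0.75 in TTF lines. At passage 10, 3 of 13 differed, Bmp4, Bmp7 (0.83) and Bmp8a (0.37), and there Bmp7 was highest in granulocyte lines, at 6.94 ± 0.15. The median range over the ligands was 0.39 at passage 4 and 0.27 at passage 10, beside 0.55 and 0.24 over all probe sets.

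Of receptor genes, 3 of 8 differed at passage 4, Acvr2b (1.29), Eng (1.26) and Bmpr2 (0.84), and 3 of 9 at passage 10, Acvrl1 (0.71), Acvr1 (0.56) and Acvr2b (0.40). Acvr2b encodes a type II receptor and Acvr1 a type I receptor, and both were highest in granulocyte lines at passage 10 (9.84 ± 0.08 and 8.55 ± 0.09). Of Smads and their regulators, 4 of 10 differed at passage 4, Smad5 (1.38), Skil (0.95), Smad1 (0.75) and Nedd4l (0.72), and 4 of 11 at passage 10, Smad5 (0.57), Ctdsp1 (0.47), Nedd4l (0.43) and Skil (0.29). Smad5, a signal-transducing Smad of the BMP branch, was highest in granulocyte lines at passage 4 (7.56 ± 0.21) and lowest there at passage 10 (6.29 ± 0.05), the order seen for Bmp4. Median ranges were 0.55 and 0.27 for receptors and 0.65 and 0.29 for Smads.

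Of extracellular inhibitors and modulators, 2 of 15 differed at passage 4, Grem1 (1.34) and Bambi (1.24), and 7 of 15 at passage 10, the widest being Fst (1.69), Grem1 (1.61), Tll1 (0.76) and Twsg1 (0.62). Grem1 and Fst encode secreted antagonists, and at passage 10 both were highest in TTF lines (7.49 ± 0.60 and 8.29 ± 0.84) and lowest in granulocyte lines (5.89 ± 0.22 and 6.60 ± 0.29), as the fibroblast and feeder markers were. Of other BMP target genes, 8 of 16 differed at passage 4, led by Gata2 (2.51), Hey1 (1.90), Dlx3 (1.5) and Hes1 (1.32), and 6 of 17 at passage 10, led by Cdx2 (1.53), Msx1 (0.72), Id4 (0.64) and Hes1 (0.48). Cdx2, a trophectoderm and posterior mesoderm factor, was 6.58 ± 0.25 in granulocyte lines at passage 10 and 7.77 ± 0.35 to 8.11 ± 0.26 in the others. Of the Id partner list, 1 of 7 genes differed at each passage, Mycn (1.80) at passage 4 and Neurod1 (0.88) at passage 10. A place on this list does not show that Id proteins bind the product, and Mycn encodes no E protein. Median ranges were 0.45 and 0.37 for inhibitors, 0.79 and 0.33 for targets and 0.72 and 0.27 for the Id partner list. At passage 16 limma called 0 genes of these 6 lists, with 4 ligands, 2 receptors, 0 Smads and regulators, 3 inhibitors, 4 other targets and 1 gene of the Id partner list at an unadjusted p under 0.05.

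Over passage in mouse 2, 6 of 15 inhibitors changed, with Twsg1 lower (-1.01) and 5 higher, among them Htra1 (0.53), Fstl1 (0.53), Grem1 (0.43) and Fstl3 (0.42). Their median was 0.18, beside 0.05 over all probe sets, of which 29.4% were called. Of the other lists, Bmp8b (0.22) of 13 ligands, Acvr2b (0.29) of 8 receptors and Tcf3 (0.55) of 7 genes of the Id partner list rose. Tcf3 encodes some of the E proteins that Id proteins bind, and the list also holds the E protein genes Tcf4 and Tcf12. Smad2 (-0.61) and Ppm1a (-0.48) fell among 10 Smads and regulators, and of 16 other targets Dlx3 (-0.46) and Hhex (-0.38) fell and Zeb2 (0.38) and Hes1 (0.36) rose. In these arrays 10 of 22 fibroblast and feeder markers rose and 2 fell, against 15% and 14.4% of all probe sets, and their part was not tested.

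In SMP lines against granulocyte lines at passage 4, Bmp7 rose (1.65) and Gdf3 (-1.46) and Bmp2 (-1.17) fell among 13 ligands. Of all probe sets, 20.6% were called in that pair. Grem1 (1.21), Fstl3 (0.99) and Bambi (0.91) were higher among 15 inhibitors. Of 16 other targets, Gata2 (2.60), Hes1 (1.65) and Dlx3 (1.55) were higher and Dusp9 (-0.60) lower. Smad5 (0.54) was higher among 10 Smads and regulators, and 1 of 7 genes of the Id partner list was called, Ets1 (-0.63). The receptors had 0 of 8 called by limma and 0 at an unadjusted p under 0.05. Here 10 of 22 fibroblast and feeder markers were higher and 0 lower, and 6 of 14 endoderm markers were lower and 0 higher. Of all probe sets, 10% were higher and 10.5% lower. The part of these markers was not tested.

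Members varied together in part. Over the 11 group means of the larger table, which share their normalization, Pearson's r was 0.72 between Id1 and Id3, 0.46 between Bmp4 and Id1, 0.20 between Bmp4 and Id3, and 0.84 between Id2 at 1422537_a_at and Smad7. Over the 33 arrays after removal of group means, the values were 0.53, 0.55, 0.20 and 0.78. The Id2 probe sets 1422537_a_at and 1435176_a_at had r of 0.84 and 0.66. Smad6 ran the other way in the larger table, with r over the group means of -0.65 with Smad7 and -0.53 with Bmp4. Over the passage 10 means, Smad6 had r of 0.66 with Smad7 and -0.95 with Bmp4. Id2 at 1422537_a_at and Smad7 had 0.43 over those means and 0.03 after their removal. Over the 4 group means of passage 10, r was 0.84 between Id1 and Id3, 0.80 between Bmp4 and Id3, -0.98 between Bmp4 and Id2 at 1435176_a_at, and -0.88 between Smad7 and Id1. Over the 12 arrays of passage 10 after removal of group means, these were 0.71, -0.08, -0.67 and -0.37. Bmp4 and Id2 at 1422537_a_at had -0.97 over the passage 10 means and 0.33 after their removal. In the larger table, Bmp4 and Id2 had 0.46 and 0.34 at 1422537_a_at, and 0.35 and 0.35 at 1435176_a_at. Smad7 and Id1 had 0.64 and 0.49 there. With 4 means, r largely follows the difference between origins. The genes most like Bmp4 over the 11 groups, among 5286 candidate genes, were Nfib (0.96), Myo1c (0.94) and Tead4 (0.94), and over the 4 groups of passage 10 their r was 0.92, -0.98 and -0.99. For Id1 they were Slc30a1 (0.87), Cd37 (0.85) and Fyttd1 (0.85), with 0.85, 0.93 and -0.37 at passage 10. For Id2 at 1435176_a_at they were Gfm1 (0.89), Tfcp2l1 (0.88) and Mrpl57 (0.85), with -0.94, 0.60 and -0.38 at passage 10. For Id3 they were Fancm (0.89), Orc4 (0.88) and Slc25a47 (0.87), with 0.88, 0.86 and 0.44 at passage 10. Over the 33 arrays after removal of group means, r was 0.64, 0.66 and 0.39 for the genes named for Bmp4. It was 0.19, 0.59 and 0.34 for those of Id1. For those of Id2 it was 0.63, 0.49 and 0.64, and for those of Id3 0.27, -0.02 and 0.29.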

How the data were processed

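RNA was measured on 45 arrays. Expression was deposited by the authors on the log2 scale after RMA, per the submitters' processing notes, as 2 tables from 2 array platforms. The RMA version and settings are not given in the sources used here. Symbols came from each platform's annotation. In the table of passages 4, 6 and 16, 18003 of 22690 probe sets had 1 symbol, 287 several and 4400 none, and at passage 10 these were 20393, 691 and 1606. The model, fitted separately to both tables in limma 3.58.1 (R 4.3.3), took all 22690 probe sets, with 1 mean per group, empirical Bayes moderation and Benjamini-Hochberg adjustment, and tested on simulated data. Figures used Python 3.11.15 and matplotlib 3.10.9. Groups came from the labels. List genes were represented by their probe set with the highest mean, and up to 4 called genes per list and direction (F-test: the widest ranges) were named. Likeness used the 3 highest r among probe sets spanning at least 1 log2 unit. Members and lists were chosen with earlier results of these data known. The labels give no batch, so batch and group cannot be told apart. The number of arrays limits the precision. Alternatives were features tested, a dim filter at log2 6, quantile and cyclic loess normalization, an intensity trend, array weights, only the arrays compared, replicate blocks and each array left out.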

Additional observations from a re-analysis of the deposited data

Results flagged for a closer look

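The change from passage 4 to 16 differed among the 4 origins of mouse 2, by a test of the interaction, in 4 member probe sets. The range of the changes on the log2 scale was 3.59 for Bmp4, 1.97 for Id2 at 1422537_a_at, 1.71 for Id3 and 1.45 for Id1. Bmp4 fell in granulocyte lines, and Id3 rose in T cell lines. The change of Bmp4 in granulocyte lines also differed between the mice, by 3.03, and this compares 1 animal with another. That call between the mice was lost under 7 of 21 alternatives. Of the calls among origins, that of Id3 was lost under 4 of 33 alternatives and that of Id1 under 6 of 33. Those of Bmp4 and Id2 were kept under every alternative run. What lies behind these differences was not tested.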

How the results depend on the processing

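No alternative reversed a called member. Of 50 calls, 25 were kept under every alternative run. With array weights the count of called members became 10 in the passage 4 pairs, 2 in the passage 16 origin test, 5 in the passage 16 pairs, 12 in the passage changes by origin, 3 and 2 in SMP against granulocyte lines at passages 4 and 16, and 2 and 2 in mouse 1 against mouse 2 at passages 4 and 16. With only the arrays compared it became 0 in the passage 16 pairs, 3 in the passage changes by origin, 0 for passage by mouse, 3 and 4 for SMP lines, and 0 and 0 between the mice. Quantile normalization gave 0 between the mice at passage 4, and the clone number as a replicate block gave 0 and 0. Each comparison held 8 member probe sets, and the pairs of a passage were 6. The share of all probe sets called was not counted under the alternatives, here or with single arrays left out. These counts therefore cannot be set beside such a share. What caused the changes in count was not tested.

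Leaving out 1 array gave 2 to 4 at passage 4 (pairs 4 to 8), 3 to 6 at passage 10 (pairs 11 to 16), 0 to 3 at passage 16 (pairs 0 to 5), 3 to 5 for the mean passage change, 5 to 8 by origin, 2 to 6 for passage by origin, 0 to 1 for passage by mouse, 0 to 2 and 0 to 0 for SMP lines, and 0 to 1 and 0 to 3 between the mice. Deviations of same-numbered clones correlated over 0.1 in 8 of 15 pairs between passages, 3 of 18 between origins at passage 4 and 14 of 18 at passage 16. All pairs did so for the mouse 1 granulocyte lines between passages (0.14 to 0.32) and, at passage 16, for T cell with granulocyte (0.35 to 0.52), B cell with granulocyte (0.22 to 0.32) and B cell with T cell lines (0.16 to 0.24). With the replicate block, T cell against granulocyte lines at passage 16 stayed called for Id3 (adjusted p = 0.025) and Id1 (0.043), and no member was called in the other 3. Elsewhere the line as a replicate block gained Bmp4 in the mean passage change (-0.54, 0.037), Id1 in the T cell (0.025) and granulocyte lines (0.016), and Smad7 for passage by origin (0.030).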
